A study of Mus musculus with 14 samples.

Results

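The genes described here are 10 members of the calcineurin and NFAT pathway and of the set of genes it induces in T-cells that are made unresponsive. They were the calcineurin catalytic subunits Ppp3ca and Ppp3cb, the transcription factors Nfatc1, Nfatc2 and Nfatc3, the inducible transcription factors Egr2, Egr3, Nr4a2 and Nr4a3, and the ubiquitin ligase Rnf128. Every probe carrying one of these gene names was taken, which gave 24 of the 56605 probes and 10 of the 36870 gene names on the array. The arrays were hybridised with total RNA from CD4+ T-cells of mice heterozygous for the sanroque allele of Roquin (Roquin san/+, 7 samples) and of wild-type mice (7 samples), with 1 array for each sample. Whether each sample came from a separate mouse was not stated, so p-values measure only the spread between these samples. Roquin, encoded by Rc3h1, is an RNA-binding protein that restrains helper T-cells, and the sanroque allele is a point mutation of it. No treatment was given by the labels, and the age, sex and tissue of origin of the cells were not given in the sources used here. The comparison asks which transcripts of this pathway differ between the CD4+ T-cells of both genotypes at the level of the whole cell preparation.

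When the T-cell receptor raises intracellular calcium, the phosphatase calcineurin removes phosphates from NFAT proteins, which then enter the nucleus. NFAT acting with AP-1 drives genes of activation, whereas NFAT acting largely alone drives genes linked to anergy, among them Egr2, Egr3 and the E3 ligase Rnf128, also called GRAIL. The NR4A orphan receptors are induced quickly by receptor signals, and both EGR and NR4A factors are also expressed in follicular helper T-cells.

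Levels are given as the log2 of the processed signal relative to the 75th percentile of probes that were well above background on all arrays of a comparison, so that 0 is that percentile and a negative level is below it. Levels of different probes cannot be set against each other. Wild-type replicate E and Roquin san/+ replicate G had their spots 2 grid rows away from the probe names and were moved back before use, after which each correlated with the median array at 0.99 (r across spots). On those 2 arrays only 21.4% and 23.6% of spots were well above background, compared with 55.4% to 76.5% on the 12 other arrays. Genotypes were therefore compared over all 14 arrays and, separately, over the 12 well-placed arrays (6 of each genotype). The 7 T-cell markers examined, Cd3d, Cd3e, Cd3g, Cd4, Cd5, Cd28 and Lck, were well above background on all 14 arrays. Their summed level, the sum of their signals after each was divided by that percentile, was 28.8 to 38.1 on 11 arrays, but 19.1 on Roquin san/+ replicate C, 14.9 on Roquin san/+ replicate F and 16.7 on wild-type replicate C. The summed level of 7 myeloid markers was 34.7, 87.4 and 29.3 on these 3 arrays, compared with 1.60 to 11.6 on the other 11. Replicate F of Roquin san/+ also had the highest summed level of B-cell, CD8, NK and erythroid markers, and replicate C of Roquin san/+ was the dimmest array, with a 75th percentile of processed signal of 107 compared with 339 to 996 elsewhere. The genotypes were unevenly split over 2 slides, slide 1 carrying 5 arrays of Roquin san/+ mice beside 2 wild-type and slide 2 carrying 2 beside 5.

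None of the members passed the test after adjustment over all probes. Over the 14 arrays, 8 members could be tested, of which 0 were called by limma at an adjusted p below 0.05 and 0 had an unadjusted p below 0.05. Their means were higher in Roquin san/+ CD4+ T-cells in 8 of 8, with a median log2 difference of 0.33, but the probes of Egr3 and Rnf128 failed detection above background in replicate E of the wild-type and entered only through Roquin san/+. The 6 tested members that were well above background on every array were also higher in 6 of 6, with a median of 0.23. With the percentile taken over all probes 5 of 8 were higher with a median of 0.16, where the median of all probes tested was -0.17 and 23.0% were above 0, and with quantile scaling 7 of 8 were higher with a median of 0.20. Across all 12864 probes tested, 0% were called, 4.06% had an unadjusted p below 0.05, 3.26% had one and were higher in Roquin san/+, and 49.6% of the differences were above 0. Over the 12 arrays all 10 members could be tested, 9 were higher in Roquin san/+ with a median difference of 0.35, 0 were called, and 1 member, Nr4a3, had an unadjusted p below 0.05. In that comparison 0% of 28963 probes were called, 7.19% had an unadjusted p below 0.05 (5.8% with a higher mean in Roquin san/+), and 54.3% of the differences were above 0. The adjusted p of the members' brightest tested probes was 0.959 or more over 14 arrays and 0.647 or more over 12. Without the 3 arrays that were low in T-cell markers, 6 of 8 members were higher over the remaining 11 arrays with a median difference of 0.12, and 8 of 10 over the remaining 9 with a median of 0.21. The 2 comparisons share 12 arrays and are not independent of each other.

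**Figure D1:**
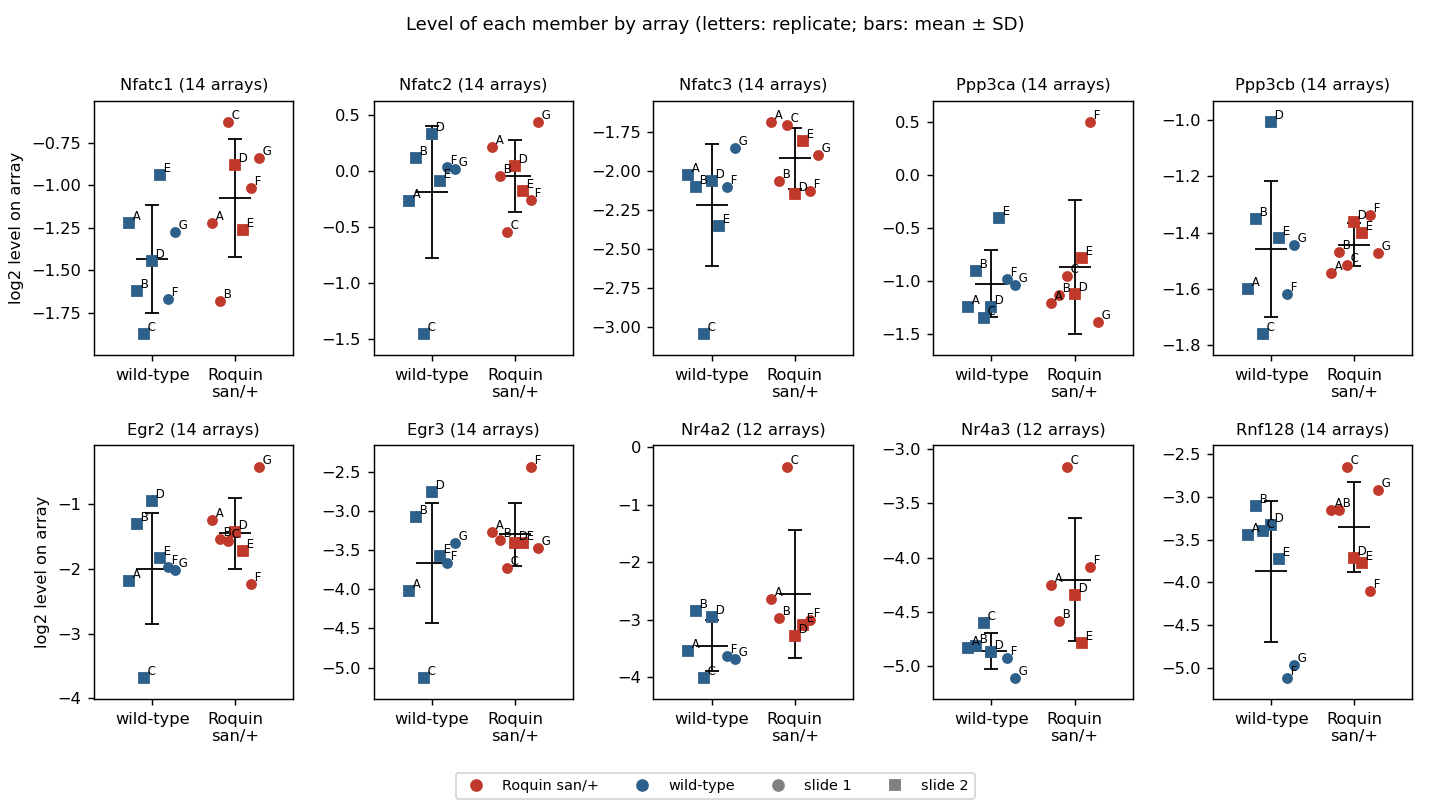
Level of the brightest tested probe of each member on each array (y axis, log2 relative to the 75th percentile; the scale named above each panel), with wild-type arrays in blue and Roquin san/+ arrays in red, circles for slide 1, squares for slide 2, letters for replicates and black bars for the mean ± SD. The genotypes overlap in all 10 panels, wild-type C is the lowest wild-type array for every member but Nr4a3 and Rnf128, and Ppp3ca, Egr3, Nr4a2 and Nr4a3 each have 1 Roquin san/+ array well above the others.

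Neither calcineurin transcript passed the test between genotypes. For Ppp3ca, the alpha catalytic subunit, the lowest, median and highest levels over 14 arrays were -1.39, -1.12 and 0.50 in Roquin san/+ and -1.35, -1.04 and -0.40 in wild-type. A single array, Roquin san/+ replicate F, stood at 0.50, while the next Roquin san/+ array was at -0.78 and the remaining arrays of both genotypes overlapped. The mean difference was 0.16 ± 0.25 (SE, limma adjusted p = 0.972, exact permutation p = 0.658), with a 95% interval from -0.38 to 0.70, and without replicate F it was -0.071. The summed level of 6 B-cell markers on replicate F was 18.9, compared with at most 4.80 on the other arrays. The summed levels of the myeloid, CD8, NK and erythroid markers were also highest on this array. The part of any of these in the Ppp3ca value was not tested.

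Ppp3cb encodes the beta catalytic subunit, and its interval was the narrowest among the members' brightest probes. Its level was between -1.54 and -1.34 on the Roquin san/+ arrays, with a median of -1.47, and between -1.76 and -1.01 on the wild-type arrays, with a median of -1.44 (14 arrays). All 7 Roquin san/+ arrays thus lay inside the wild-type range, and the difference was 0.01 ± 0.12 (SE, limma adjusted p = 0.997, exact permutation p = 0.89), with a 95% interval from -0.24 to 0.27. A further probe of Ppp3cb gave 0.14 ± 0.11, and over the 12 arrays another gave -0.39 ± 0.32, so that its tested probes differed in sign and none had an unadjusted p below 0.05. The probe at -0.39 failed detection above background in replicate C of Roquin san/+ and entered only through wild-type. The remaining Ppp3cb probe was well above background on 10 arrays and was not tested.

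Nfatc1 had the lowest unadjusted p over the 14 arrays among the brightest probes. NFATc1 is the NFAT member whose own gene is induced by NFAT in activated lymphocytes. Its level was -1.68, -1.02 and -0.63 (lowest, median, highest) in Roquin san/+ and -1.87, -1.45 and -0.94 in wild-type, and 3 of the 7 Roquin san/+ arrays were above every wild-type array. Replicate B was the exception in Roquin san/+, lying below all but 1 wild-type array. The difference was 0.36 ± 0.18 (SE, limma p = 0.0638, adjusted p = 0.959, two-sided exact permutation p = 0.0664), a 1.28-fold higher mean with a 95% interval of the log2 difference from -0.02 to 0.74. It was 0.18 without the 3 arrays low in T-cell markers and 0.19 with the percentile taken over all probes. A further Nfatc1 probe gave 0.50 ± 0.26 (exact permutation p = 0.1). On slide 1 alone the brightest probe differed by 0.39 and on slide 2 alone by 0.35, whereas the further probe differed by 0.86 on slide 1 and by -0.07 on slide 2.

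Nfatc2 and Nfatc3 encode the NFAT proteins that resting T-cells already contain. Nfatc2 was -0.54, -0.05 and 0.43 in Roquin san/+ and -1.45, 0.02 and 0.32 in wild-type over 14 arrays. Only wild-type replicate C lay clearly below the rest, and with it the difference was 0.14 ± 0.24 (SE, limma adjusted p = 0.972, exact permutation p = 0.674) but without it -0.071. The Nfatc3 probe that could be read on all 14 arrays was -2.15, -1.90 and -1.69 in Roquin san/+ and -3.04, -2.10 and -1.86 in wild-type, again with replicate C as the lowest wild-type array. Its difference was 0.30 ± 0.17 (SE, limma p = 0.0964, exact permutation p = 0.067), and 0.16 without wild-type replicate C. The brightest Nfatc3 probe had no value on the 2 moved arrays and gave 0.17 ± 0.16 over the other 12. Over these arrays 2 further Nfatc2 probes gave 0.45 ± 0.36 and 0.12 ± 0.27, and a further Nfatc3 probe gave -0.03 ± 0.22. Another Nfatc3 probe was well above background on 9 arrays and was not tested.

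**Figure D2:**
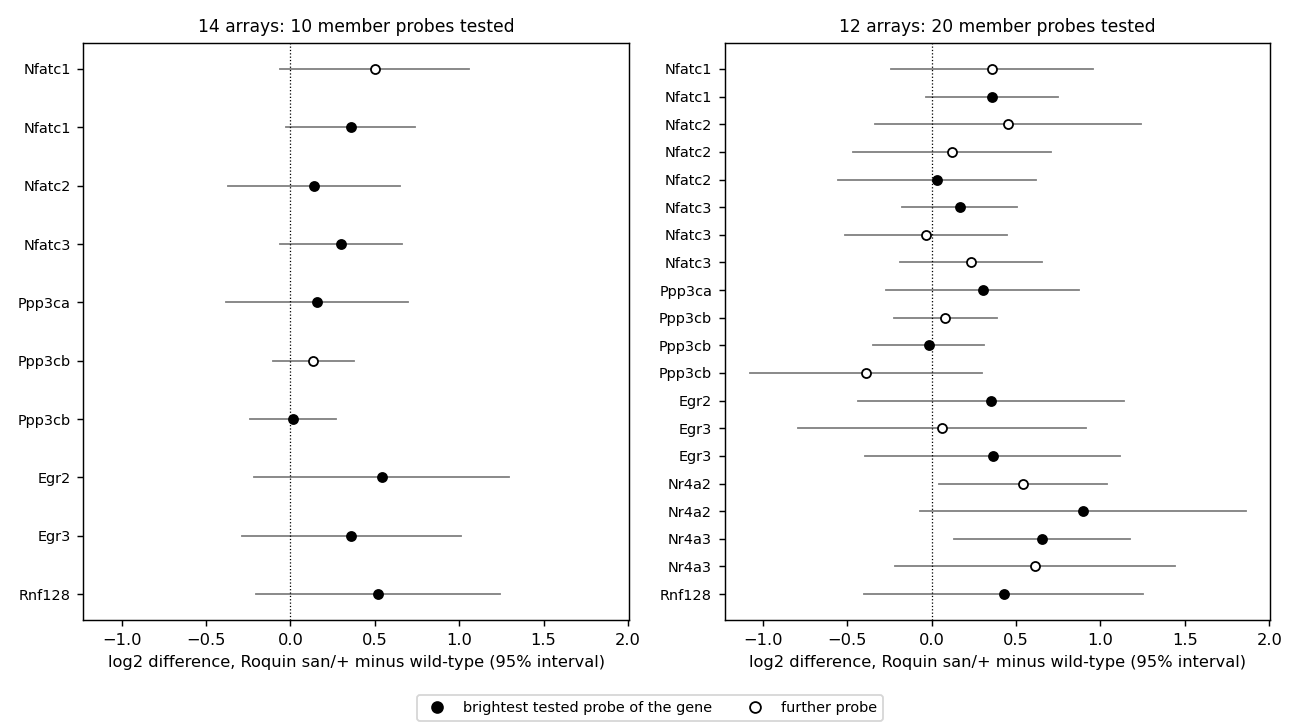
Log2 difference of every tested member probe, Roquin san/+ minus wild-type (x axis; point, estimate; line, 95% interval from limma), over 14 arrays (left) and over 12 arrays (right), with filled points for the brightest tested probe of a gene. All 10 intervals on the left include 0, and on the right the intervals of 1 Nr4a2 probe and 1 Nr4a3 probe lie above 0 before adjustment.

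Egr2 and Egr3 encode zinc-finger factors downstream of NFAT that limit T-cell activation. Egr2, read by 1 probe at chr10:67004758-67004817 (mm9 coordinates of the array design), was -2.24, -1.54 and -0.43 in Roquin san/+ and -3.68, -1.98 and -0.97 in wild-type over 14 arrays. The highest array was Roquin san/+ replicate G and the lowest was wild-type replicate C, and 6 of 7 Roquin san/+ arrays were above the wild-type median. The difference was 0.54 ± 0.35 (SE, limma adjusted p = 0.959, exact permutation p = 0.195), 1.45-fold, with an interval from -0.21 to 1.30, and it was 0.26 without wild-type replicate C.

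The same arrays stood at the ends of the summed level of 6 follicular helper markers, Bcl6, Cxcr5, Icos, Il21, Pdcd1 and Sh2d1a. Taken singly, 4 of the 6 were highest on Roquin san/+ replicate G and 4 were lowest on wild-type replicate C. The summed level of these 6 genes reached 5.99 on Roquin san/+ replicate G, and it was 0.89 for wild-type replicate C, compared with 1.65 to 3.35 on the other 12 arrays. Among the 12 well-placed arrays, Cxcr5 failed to be well above background only on Roquin san/+ replicate C. The part of this in the Egr2 values was not tested, and in bulk RNA a change in the share of a cell type cannot be told apart from a change in RNA per cell.

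Egr3 was -3.73, -3.42 and -2.44 in Roquin san/+ and -5.13, -3.57 and -2.77 in wild-type over 14 arrays. Roquin san/+ replicate F was the highest and wild-type replicate C the lowest, with the other arrays interleaved. The wild-type median of -3.57 was replicate E, on which the probe was not well above background. The difference was 0.36 ± 0.30 (SE, limma adjusted p = 0.959, exact permutation p = 0.325), 0.38 without wild-type replicate E and 0.12 without wild-type replicate C. Over the 12 arrays, on all of which the probe was well above background, it was 0.36 ± 0.35 (exact permutation p = 0.368). A further Egr3 probe gave 0.06 ± 0.39 over 12 arrays, and the third was not well above background on any of the 14 arrays.

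Nr4a2 (Nurr1) and Nr4a3 (Nor1) encode nuclear receptors without a known activating hormone, and they had the largest differences among the members over the 12 arrays. On the 2 moved arrays no probe of either gene was well above background, so that they entered only the 12-array comparison. The start regions of both genes are printed to show a feature they share, which the choice of members did not use. The 250 bases before the RefSeq start sites (GRCm38.p6) are given 5′ to 3′ on the gene's strand, with capitals for matches on either strand to TGACG, the core of the cAMP response element, and to GGAAA, the core of NFAT sites.
Nr4a2, chr2:57124004-57124253, minus strand: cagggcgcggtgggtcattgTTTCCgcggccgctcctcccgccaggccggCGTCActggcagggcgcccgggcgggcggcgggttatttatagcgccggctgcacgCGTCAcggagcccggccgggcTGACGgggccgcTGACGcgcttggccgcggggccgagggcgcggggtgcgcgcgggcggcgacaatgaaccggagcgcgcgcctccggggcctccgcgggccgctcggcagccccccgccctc
Nr4a3, chr4:48045055-48045304, plus strand: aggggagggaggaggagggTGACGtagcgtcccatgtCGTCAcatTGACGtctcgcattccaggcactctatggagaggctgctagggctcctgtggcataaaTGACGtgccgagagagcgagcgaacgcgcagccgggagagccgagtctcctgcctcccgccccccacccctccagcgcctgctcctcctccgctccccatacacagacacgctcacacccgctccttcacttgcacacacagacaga
Each window held 4 matches to TGACG or its reverse complement CGTCA, the nearest to the start lying 111 bases before it in Nr4a2 and 147 bases before it in Nr4a3. Of the 32851 windows of the same length in the table, 17.8% held at least 1 such match and 0.137% held 4 or more. The Nr4a2 window was 80% G or C and the Nr4a3 window 63.6%, compared with a median of 52.4% over all windows. These shares were not matched for that content. GGAAA or TTTCC had 1 match in the Nr4a2 window, 230 bases before the start, and not in the Nr4a3 window, compared with 55.6% of all windows. The window at the most upstream of the 5 Egr2 start sites listed held neither core. Of 4 other motifs searched on both strands, AAAGGTCA (bound by NR4A monomers), GCGTGGGCG (bound by EGR factors), TGANTCA (AP-1) and the CArG box, none had a match in these 3 windows, and they were found in 1.34%, 0.536%, 6.75% and 1.47% of all windows. RefSeq start windows were matched for 7 of the 10 members, and matches are given for only these 3. A match of letters is a description and not a bound site.

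For Nr4a3 the brightest probe, at chr4:48064521-48064580 (mm9), was -4.79, -4.30 and -3.16 in Roquin san/+ and -5.11, -4.85 and -4.60 in wild-type over the 12 arrays. Of the 6 Roquin san/+ arrays, 5 lay above every wild-type array and replicate E lay among them. The difference was 0.65 ± 0.24 (SE, limma p = 0.0179, adjusted p = 0.647, exact permutation p = 0.00433, where the smallest possible value is 0.00216), 1.57-fold, with a 95% interval from 0.13 to 1.18. Replicate C was the highest, and without it the difference was 0.45 (exact permutation p = 0.0108). Without the 3 arrays low in T-cell markers it was 0.42 (exact permutation p = 0.00794, the smallest possible with 4 and 5 arrays). With the slide as a block it was 0.60 (adjusted p = 0.888), and within slides it was 0.99 on slide 1 and 0.21 on slide 2.

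The Nr4a3 probe was dim, and dim probes in general read higher in Roquin san/+. Of the 8057 probes with a mean level between -6 and -4, where this probe lies, 73.1% had a difference above 0, the median difference was 0.30, and 11.5% were higher with an unadjusted p below 0.05. Roquin san/+ replicate C was the highest of the 12 arrays for 57.2% of these probes. A further Nr4a3 probe, well above background on 11 arrays, gave 0.61 ± 0.38 (exact permutation p = 0.167), which became 0.14 without replicates C and F of Roquin san/+. This probe failed detection above background in replicate D of the wild-type, its lowest array, and entered only through Roquin san/+. The third Nr4a3 probe was not well above background on any of the 14 arrays.

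Nr4a2 was measured by 2 probes. The brighter, at chr2:56960000-56960059 (mm9), was -3.29, -2.99 and -0.33 in Roquin san/+ and -4.02, -3.60 and -2.86 in wild-type over the 12 arrays. The value of -0.33 belonged to replicate C, and the next, replicate A, stood at -2.65, also above every wild-type array. The remaining Roquin san/+ arrays lay within the wild-type range. The difference was 0.90 ± 0.45 (SE, limma p = 0.0661, adjusted p = 0.647, exact permutation p = 0.0368), 1.86-fold, and 0.45 (exact permutation p = 0.0779) without replicate C. Within slides it was 1.42 on slide 1, which held replicate C, and 0.16 on slide 2.

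The second Nr4a2 probe was -4.64, -3.83 and -3.40 in Roquin san/+ and -5.02, -4.39 and -4.04 in wild-type. Here 4 of the 6 Roquin san/+ arrays lay above every wild-type array. The difference was 0.54 ± 0.23 (SE, limma p = 0.0346, adjusted p = 0.647, exact permutation p = 0.039), and 0.26 without the 3 arrays low in T-cell markers. This probe had a mean level of -4.20, in the range between -6 and -4 in which 73.1% of all probes were higher in Roquin san/+. Neither Nr4a2 probe was called.

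Rnf128, which encodes the E3 ligase GRAIL, had the largest difference between slides in its genotype effect among the members. Its 1 probe, at chrX:136206790-136206849 (mm9), was -4.10, -3.16 and -2.65 in Roquin san/+ and -5.12, -3.44 and -3.11 in wild-type over the 14 arrays. The 2 lowest arrays were wild-type replicates F and G, at -5.12 and -4.96, which are the 2 wild-type arrays on slide 1. The difference over all arrays was 0.52 ± 0.34 (SE, limma adjusted p = 0.959, exact permutation p = 0.2), with an interval from -0.20 to 1.24, and 0.31 without wild-type replicate F.

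On slide 1 the 5 Roquin san/+ arrays were between -4.10 and -2.65, all above the 2 wild-type arrays, a difference of 1.85 (exact permutation p = 0.0476, the smallest possible with 5 and 2 arrays). On slide 2 the 2 Roquin san/+ arrays were at -3.77 and -3.72 and the 5 wild-type arrays between -3.72 and -3.11, a difference of -0.34 (exact permutation p = 0.19). The wild-type value of -3.72 was replicate E, on which the probe was not well above background, and over the 12 arrays the difference on slide 2 was -0.40 (exact permutation p = 0.0667, the smallest possible with 2 and 4 arrays). The difference between slides in the genotype effect was 2.19 over 14 arrays (limma interaction, adjusted p = 0.356) and 2.11 over 12 (adjusted p = 0.497). This interaction was examined after the values were seen. For it 0 of the 12864 probes were called, 7.60% had an unadjusted p below 0.05, and 7 had a smaller p than Rnf128. No probe of the other members had an unadjusted interaction p below 0.05. The probe was well above background on all 12 well-placed arrays, wild-type F and G included, and the part of the slide in these low values was not tested.

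**Figure D3:**
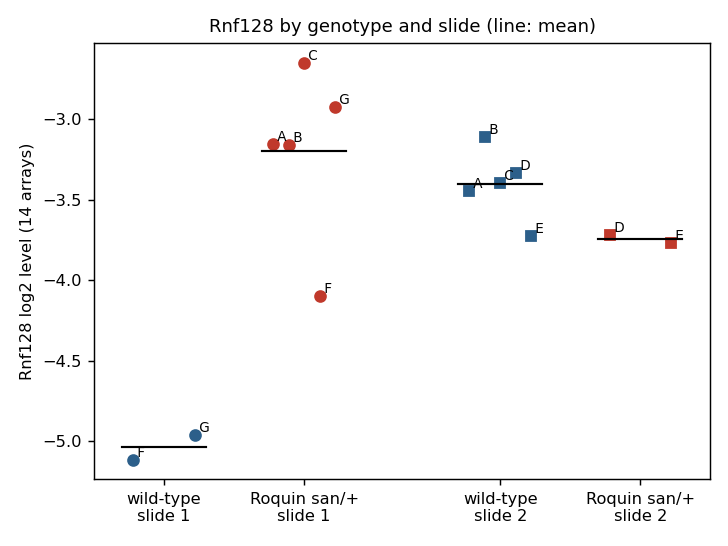
Rnf128 level (y axis, log2 relative to the 75th percentile, 14 arrays) by genotype and slide, with letters for replicates and lines for group means. The 2 wild-type arrays of slide 1 lie at -5.12 and -4.96, below every other array, and on slide 2 the Roquin san/+ mean is 0.34 below the wild-type mean.

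Across the 12 well-placed arrays single arrays stood apart for several members. Wild-type replicate C was the lowest array for 6 of the 10 members, namely Nfatc1, Nfatc2, Nfatc3, Egr2, Egr3 and Nr4a2, whereas it was the lowest for 15.7% of all probes tested. Its deviations from the median array were -1.85 for Egr2, -1.64 for Egr3, -1.34 for Nfatc2 and -0.97 for Nr4a2. Roquin san/+ replicate C was the highest array for 4 members, Nfatc1, Nr4a2, Nr4a3 and Rnf128, and for 34.4% of all probes. Nr4a2 deviated there by 2.71 and Nr4a3 by 1.53, whereas Nfatc2 deviated by -0.74 and Egr3 by -0.54. Leaving out wild-type replicate C reduced the Egr2 difference over 12 arrays from 0.35 to 0.04 and that of Egr3 from 0.36 to 0.09. The smallest spread was that of Ppp3cb, with an SD of 0.18 over the 12 arrays, and the largest that of Nr4a2, with an SD of 0.93.

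**Figure D4:**
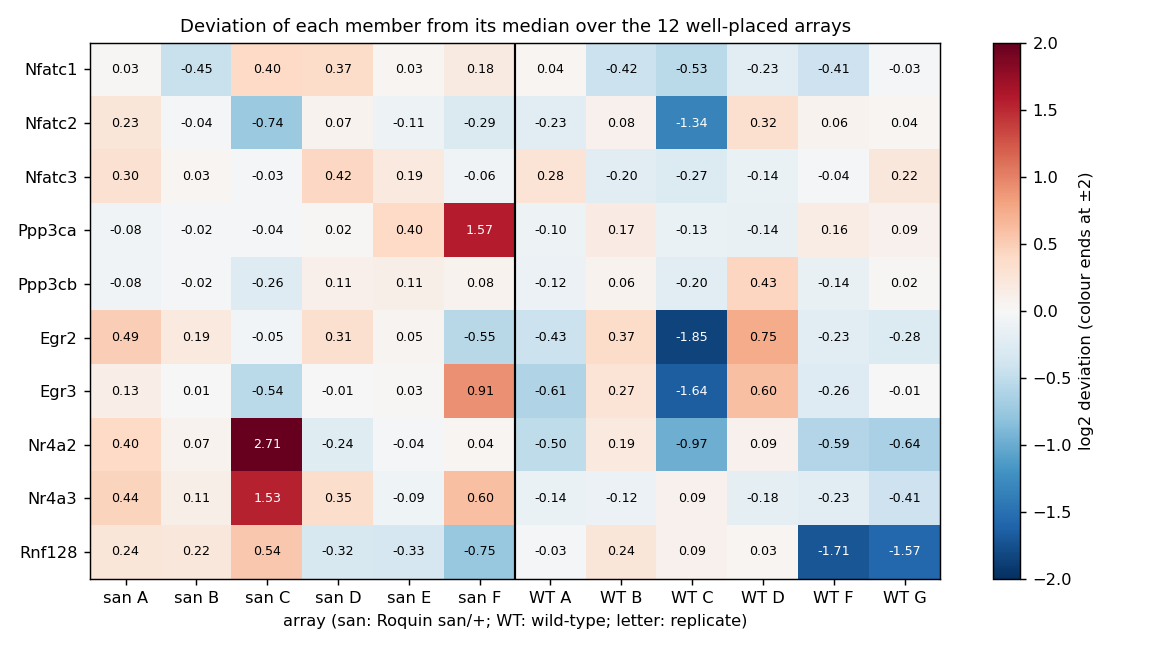
Deviation of each member's brightest tested probe from its own median over the 12 well-placed arrays (colour and printed values, log2; rows, members; columns, arrays of Roquin san/+ on the left and wild-type on the right). Wild-type C is low for Egr2 (-1.85), Egr3 (-1.64) and Nfatc2 (-1.34), Roquin san/+ C is high for Nr4a2 (2.71), Roquin san/+ F for Ppp3ca (1.57), and wild-type F and G are low for Rnf128.

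The genes whose deviations over the 12 arrays were most like a member's were found by the root mean square of the difference. Nt5e, which encodes the ecto-nucleotidase CD73 and belongs to the anergy-linked genes listed for this pathway, was nearest to Egr2 at 0.19. The median over all probes tested was 0.81, but the nearest of so many probes lies below the median by construction. The list that holds Nt5e was chosen with earlier results of these data known. Malt1, a protease and scaffold of antigen receptor signalling, was nearest to Egr3 at 0.15. Nfatc1 was nearest to Zcchc7 (0.14), Nfatc2 to Kif21b (0.10), Nfatc3 to Arhgef1 (0.11), Ppp3ca to Arap1 (0.15) and Ppp3cb to Gmfb (0.08). For Rnf128 even the nearest gene, Art3, was 0.32 away.

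The other genes of the pathway, 50 genes in 6 lists, were spread around 0 in their differences. Over the 12 arrays 45 of them could be tested by their brightest probe, 20 were higher and 25 lower in Roquin san/+, the median difference was -0.02, 0 were called and 0 had an unadjusted p below 0.05. Of all probes tested over 12 arrays, 54.3% were higher and 7.19% had an unadjusted p below 0.05. Over the 14 arrays 49.6% of all probes tested were higher and 4.06% had an unadjusted p below 0.05. There 39 of the pathway genes were tested, 17 were higher and 22 lower, 0 were called, and 1 had an unadjusted p below 0.05.

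That gene was Nrp1, which encodes the surface receptor neuropilin-1, with a difference of 0.73 ± 0.31 (SE, limma p = 0.0334, adjusted p = 0.959, exact permutation p = 0.0466) and 6 of 7 Roquin san/+ arrays above the wild-type median. A second Nrp1 probe gave 0.85 ± 0.38 (adjusted p = 0.959), and over the 12 arrays the first gave 0.53 ± 0.31 (adjusted p = 0.647). Among the further probes of these genes, 1 of Ikzf1, the gene of the transcription factor Ikaros, gave -0.37 ± 0.17 over 12 arrays (adjusted p = 0.647), while its brightest probe gave -0.02.

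Among the calcineurin inhibitors and scaffolds, 7 of 8 tested genes were lower over the 12 arrays, with a median of -0.13. The lowest was Rcan1 at -0.50 ± 0.43, the feedback inhibitor of calcineurin that NFAT induces (exact permutation p = 0.366). Its Roquin san/+ levels ran from -3.91 to -1.09 (SD 1.11), compared with -1.57 to -0.86 in wild-type (SD 0.26). The Roquin san/+ mean was -1.66 and the wild-type mean -1.17. Most of the Roquin san/+ spread and of the Rcan1 difference came from the single lowest Roquin san/+ array. Among the genes of store-operated calcium entry 7 of 8 were higher, with a median of 0.09 and Orai3 at 0.36 ± 0.25. Of all probes tested over the 12 arrays, 54.3% were higher, with a median difference of 0.04. Both lists were chosen with earlier results of these data known. The kinases Gsk3a, Gsk3b, Csnk1a1, Dyrk1a and Dyrk2, which export or inactivate NFAT, ranged from -0.33 to -0.02, while Homer3, which competes with calcineurin for NFAT, was at 0.87 ± 0.41 (limma adjusted p = 0.647). The Homer3 probe was in the same dim range as that of Nr4a3, and its Roquin san/+ levels ran from -5.83 to -2.99, the highest being replicate C. Of the relatives of the members, Nr4a1 was at 0.26 ± 0.28, Egr1 at 0.10 ± 0.32, Nfat5 at 0.48 ± 0.24 and Ppp3cc, the third catalytic subunit, at 0.21 ± 0.27. None of these had an unadjusted limma p below 0.05.

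**Figure D5:**
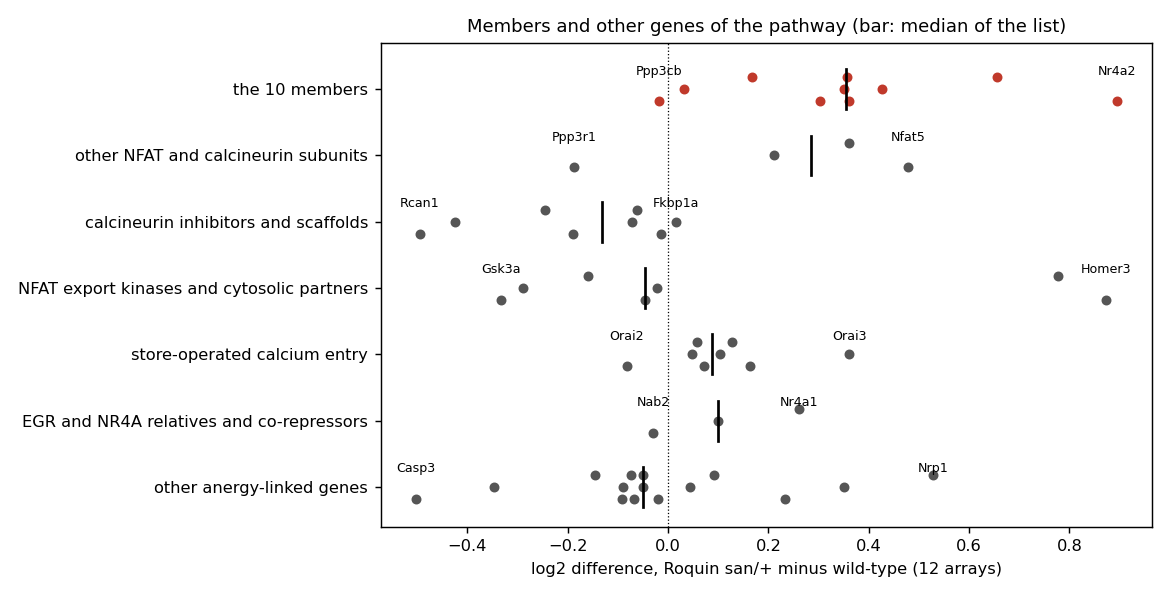
Log2 difference over the 12 arrays, Roquin san/+ minus wild-type (x axis), of the 10 members (red) and of 45 other genes of the pathway by list (grey), with a bar for each list's median and names for its lowest and highest gene. The members' median is 0.35 and those of the lists run from -0.13 to 0.29.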

How the data were processed

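CD4+ T-cell RNA of 14 samples, 7 of either genotype, was labelled with Cy3 and hybridised to 1-colour Agilent arrays. The authors deposited scanner output in which the spot intensity, already background-corrected as the processed signal, was read with Agilent Feature Extraction 10.5.1.1, per the labels, together with flags for spots well above background. They also deposited a value table on a log2 scale, whose normalization is not given in the sources used here and which served only as an alternative. The paper's description does not match these arrays, so no test was taken from it.

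On 2 arrays the spots were moved by 2 grid rows, the best of 169 shifts against the median array, which left 328 spots without a value on each. Probe values were the log2 processed signal minus the array's 75th percentile over those probes that all arrays of the comparison showed well above background (10320 probes for 14 arrays, 24217 for 12). Every probe well above background throughout at least 1 genotype then entered a limma fit (version 3.58.1, R 4.3.3), with Benjamini-Hochberg adjustment over all probes tested and a threshold of 0.05, and the fits were tested on simulated data. Single values were also tested by an exact two-sided permutation over 3432 (7 and 7) or 924 (6 and 6) arrangements. The number of arrays limits the precision. The highest-mean tested probe stood for a gene, and further probes of members are given with their values where tested. Named beyond the members were pathway genes with an unadjusted p below 0.05 and, for each member, the gene with the most similar array-centred profile, except 2 without a usable symbol. The remaining pathway genes named were chosen after their values were seen, as were the added alternatives without Roquin san/+ C and F, or without these and wild-type C, and the slide interaction. The members and gene lists were chosen with earlier results of these data known. The alternatives planned were normexp with an offset of 50, quantile scaling, a percentile over all probes, no filter, detection on 12 arrays, the slide or replicate letter as a block, each slide alone, each array left out, the probe names as deposited, the authors' log2 values and the mean of a gene's probes. Replicate letters were not taken as pairs in the main fits. Same-letter correlations ran from -0.47 to 0.41, but different-letter correlations were not computed, so these values cannot settle whether letters pair the samples.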

Additional observations from a re-analysis of the deposited data

Results flagged for a closer look

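In the 20 groups of 7 arrays formed by the 10 members and both genotypes (14-array scale), 7 had a lowest or highest array whose gap to its neighbour was wider than Dixon's 95% critical value allows, which chance gives in about 1 of 20 groups. Over all probes tested over 14 arrays, 17.0% of such groups were past this value. Nr4a2 and Nr4a3 were not tested over 14 arrays, so their groups count among the 20 but not in that share. Groups of different genes share the same arrays, so they are not independent. Wild-type replicate C was the lowest for Nfatc2, at -1.45 with the next wild-type array at -0.26, and for Nfatc3, at -3.04 with the next at -2.35. Roquin san/+ replicate F was the highest for Ppp3ca, at 0.50 with the next at -0.78, and for Egr3, at -2.44 with the next at -3.27. Roquin san/+ replicate C was the highest for Nr4a2, at -1.75 with the next at -3.86 (replicate G, a moved array on which Nr4a2 was not well above background), and for Nr4a3, at -4.58 with the next at -5.67. Wild-type replicate E, a moved array on which Nr4a3 was not well above background, was the highest wild-type array for Nr4a3 at -5.67.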

How the results depend on the processing

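No probe was called under any of the alternatives run for the 14- and 12-array comparisons. The count of members with an unadjusted p below 0.05 over 14 arrays, 0 as reported, was 1 with the deposited probe names (Nr4a2), with detection over the 12 arrays (Nr4a3), with slide 1 alone (Rnf128), without both moved arrays (Nr4a3) and without those and Roquin san/+ F (Nr4a3). Leaving out each array in turn gave 0 to 1 over 14 arrays and 1 to 2 over 12.

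The count of higher members over 14 arrays, 8 of 8 as reported, was 5 of 8 with the percentile over all probes. It was 7 of 8 with quantile scaling and 6 of 8 with replicate block and slide block. Single arrays also changed it, to 6 of 8 without wild-type replicate C (median 0.14) or without Roquin san/+ replicate F. Leaving out wild-type replicate A or F gave 7 of 8, as did each slide alone.

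Signs turned for Nfatc2, Ppp3ca, Ppp3cb and Rnf128. Nfatc2 over 14 arrays became -0.033 with the percentile over all probes, -0.068 on slide 1 alone and -0.062 with replicate block and slide block, and ran from -0.071 to 0.23 with single arrays left out. Over 12 arrays it became -0.016 without Roquin san/+ C and F and wild-type C and ran from -0.20 to 0.15 with single arrays left out. Ppp3ca over 14 arrays became -0.016 with the percentile over all probes and -0.15 without these 3 arrays, and ran from -0.071 to 0.26 with single arrays left out. Ppp3cb over 14 arrays became -0.16 with the percentile over all probes, -0.044 with quantile scaling, -0.021 with replicate block and slide block, -0.043 without the 3 arrays, -0.018 without both moved arrays and -0.036 without these and Roquin san/+ F, and ran from -0.036 to 0.089 with single arrays left out. Over 12 arrays it became 0.051 with normexp, 0.029 with the slide block, 0.032 as the mean of its probes and 0.023 without Roquin san/+ C and F, and ran from -0.060 to 0.066 with single arrays left out. Rnf128 became -0.34 on slide 2 alone. The cause was not tested.

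Whether the letters pair the samples was not settled. With the replicate block, 624 of 12864 probes had an unadjusted p below 0.05 instead of 522, and the members' differences kept their values. With the slide as a block these counts were 253 over 14 arrays and 1058 instead of 2081 over 12. Signal over background limits Nr4a2 and Nr4a3, which were not well above background on the moved arrays.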
